A study of Homo sapiens with 4 samples.

Results

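Interferon-stimulated genes and innate RNA sensors were followed across BM1 and LM2, 2 metastatic derivatives of the MDA-MB-231 human breast cancer line, with and without depletion of the RNA-binding protein hnRNPM. The members were a list of 43 gene symbols matched by name. Of these, 39 had a row among the 20329 genes kept, and 36 of the 39 had a mean of at least 1 FPKM over the libraries and were tested among 13928 genes. FPKM is a fragment count scaled by gene length and library size, so levels can be compared between genes per length. IFNB1, CXCL10, RSAD2 and CMPK2 had no row and were not analysed here.

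Each of the 4 groups was 1 polyA-selected, stranded, paired-end library: BM1 with a non-specific shRNA, BM1 with an shRNA against hnRNPM, and LM2 with the same pair of treatments. BM1 is labelled a bone metastasis derivative and LM2 a lung metastasis derivative, both of a triple-negative cancer. The shRNAs were stably expressed from lentiviral vectors in all cultures, controls included, and no parental or uninfected culture was analysed here. The labels give neither the number of shRNAs used nor whether the cultures were clonal. With 1 library per group there is no replicate within a line. Where a pair of values is given for a line below, the control library comes first.

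The type I interferon response starts when a cell detects RNA or DNA that looks foreign. The helicases RIG-I (DDX58) and MDA5 (IFIH1) bind double-stranded RNA in the cytosol and signal through MAVS to the factors IRF3 and IRF7, which switch on interferon beta (IFNB1). Secreted interferon acts through its receptor and a complex that contains STAT2 and IRF9 and binds the interferon-stimulated response element in front of target genes. Some targets, the IFIT genes among them, can also be switched on by IRF3 without interferon.

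The knockdown was examined first. HNRNPM was at 171 and 28.4 FPKM in BM1, and in LM2 at 132 and 20.3. It fell by 2.59 ± 0.25 on the log2(FPKM + 1) scale (standard error, limma over both lines, adjusted p 0.00318). The libraries held about 22800000 to 41500000 fragments, as read from the steps between low values. The share of FPKM from the mitochondrial genome was 9.31% and 12.8% in BM1, and in LM2 8.80% and 11.8%. Of the markers of the labelled cell type, VIM was between 1160 and 2354 FPKM and CD44 between 155 and 223 in all libraries, ERBB2 lay between 13.5 and 21.9, ESR1 and PGR had no row, and SPARC was at 248 and 651 in LM2 against 2.13 and 1.31 in BM1. Of 8 leukocyte markers 3 had a row. Their summed level was 25.5 and 6.20 FPKM in BM1 and 11.7 and 9.23 in LM2, while PTPRC and 4 others had no row. Most of the sum was the macrophage gene CD68, except in the LM2 knockdown library, where CD14 was at 7.09 FPKM. CD68 fell in both lines (23.5 and 4.46 FPKM in BM1, 9.50 and 2.04 in LM2, limma adjusted p 0.00969). Of 4 endothelial markers 2 had a row, with sums of 0.480 to 1.55 FPKM. Whether any of these moves bears on the members was not tested.

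The response of the members was uneven. The tetratricopeptide genes IFIT1, IFIT2 and IFIT3, the oligoadenylate synthetase-like gene OASL and the neighbouring genes SAMD9 and SAMD9L rose with knockdown in both lines. Averaged over both lines, these rises were 1.32 to 2.32 on the log2 scale. In contrast, the interferon-signalling factor IRF9, the dynamin-like effector MX1 and the RNA-activated synthetase OAS3 were lower in both knockdown libraries than in either control. None of these passed the test, and 22.6% of all genes tested had that order. In limma 6 of 36 tested members (16.7%) were called higher over both lines at an adjusted p under 0.05, where 2.71% of all genes tested were called higher. None was called lower, against 2.76% of all genes, although 3 members were lower at an unadjusted p under 0.05 (OAS3, MX1 and IRF9) and 11 were higher. Of all genes tested, 12.4% were higher and 12.5% lower at that unadjusted p, so 3 of 36 members is below the share of lower genes. The median difference of the 36 members was 0.43 in BM1 and 0.25 in LM2, beside 0.0047 and -0.038 over all genes tested. In bulk cultures a larger share of responding cells and more RNA per cell cannot be told apart.

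These 6 calls depended on the settings. They were also made with a pseudocount of 0.5, with size factors and with an intensity trend, and none was made in the 10 other settings tried, in which the 6 changes stayed positive but the adjusted p rose to between 0.0541 and 0.824. The fit has 1 residual degree of freedom per gene, which is the difference between the lines in their knockdown response. A shared direction in both lines is therefore close to a condition of being called.

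**Figure D1:**
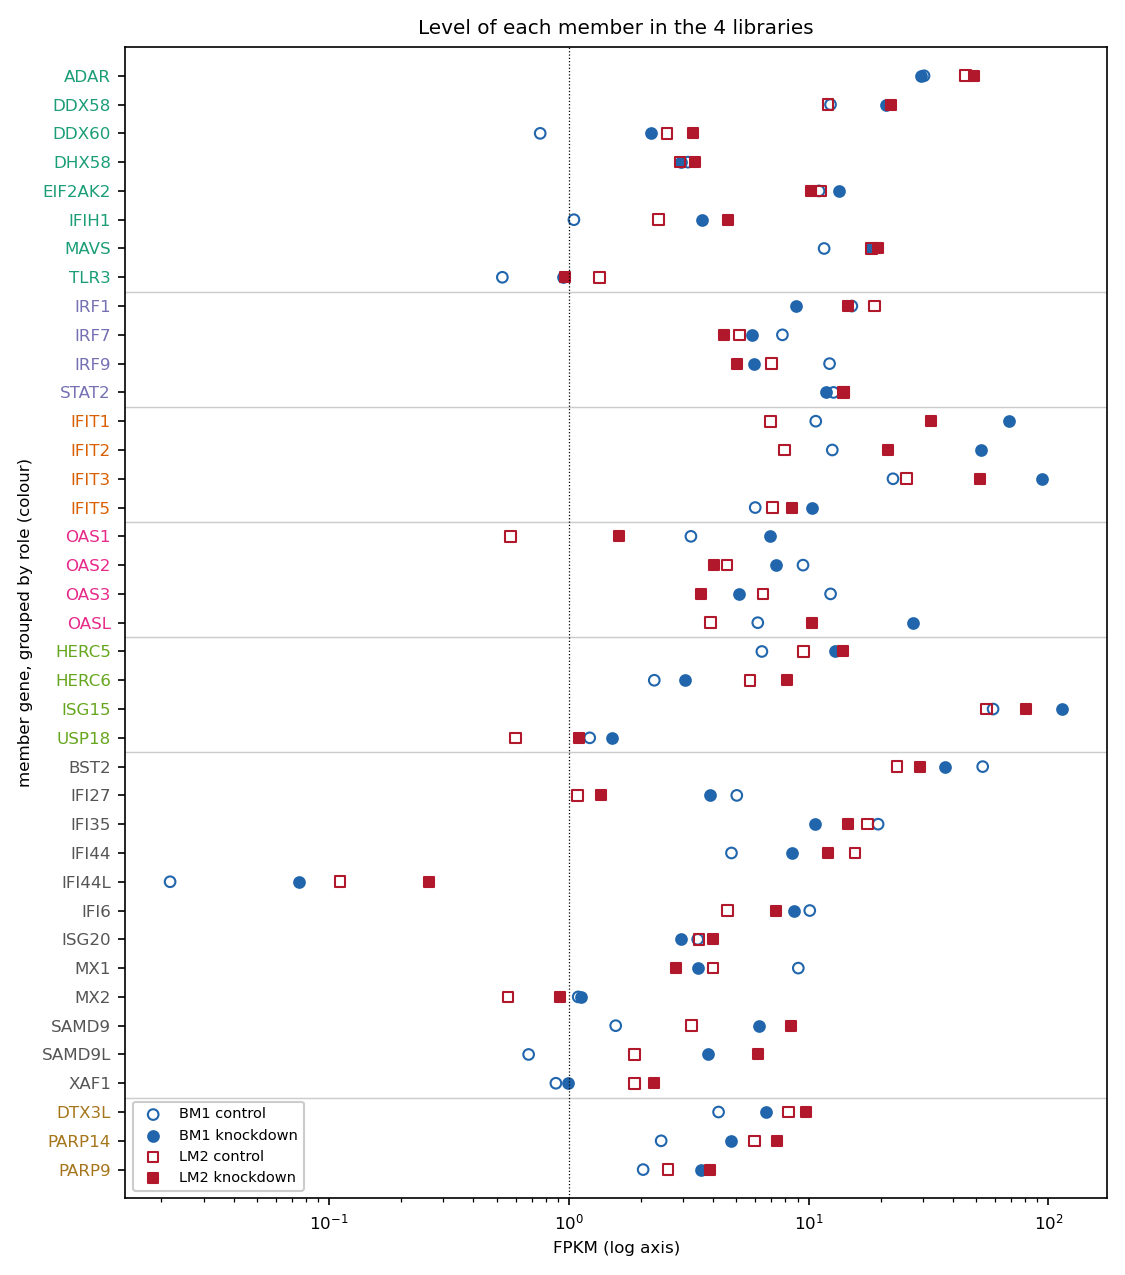
FPKM (log axis) of the 39 members in the BM1 control (open circle), BM1 knockdown (filled circle), LM2 control (open square) and LM2 knockdown (filled square) libraries, 1 library each, grouped by role in blocks; the dotted line marks 1 FPKM. In the IFIT block both filled symbols lie to the right of both open symbols for each of the 4 genes. That order held for 21.8% of all genes tested. For IFIT5 the controls were at 5.99 and 7.06 FPKM and the knockdowns at 10.3 and 8.56. For IFIT1 the controls were at 10.7 and 6.93 and the knockdowns at 68.6 and 32.3.

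Promoter sequences were compared because interferon-stimulated genes share a response element with the core GAAANNGAAA (TTTCNNTTTC on the other strand, N any base). RefSeq promoters on GRCh38.p14, from 250 bases before to 50 after each annotated start, were at hand for 36 of the 43 symbols (DDX58 under its current symbol RIGI). Those of IFIT2, OASL, OAS2, MX2, DHX58, IRF7 and USP18 were not used here. The core was found on either strand, matches allowed to overlap, in at least 1 promoter of 23 of the 36 members (63.9%), against 3.57% of 35116 promoters and 4.38% of 27305 genes. A match is a description of the letters and not evidence of binding. The windows below show the matches nearest to the start with 8 flanking bases or up to the start site, 5′ to 3′ on the gene's strand, with the core in capitals. They were chosen to show called members (IFIT1, IFIT3, SAMD9), members not called with higher knockdown levels (ISG15, IFIH1) and members with opposite signs in the lines or lower knockdown levels (BST2, OAS3).
IFIT1, chr10:89392499-89392537, plus strand: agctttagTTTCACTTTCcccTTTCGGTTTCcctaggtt
IFIT3, chr10:89327833-89327892, plus strand: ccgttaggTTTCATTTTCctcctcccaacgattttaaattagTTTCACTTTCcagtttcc
SAMD9, chr7:93118098-93118123, minus strand: tgagaaatGAAACTGAAAccaaacct
ISG15, chr1:1013376-1013407, plus strand: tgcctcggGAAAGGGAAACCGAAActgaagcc
IFIH1, chr2:162318688-162318713, minus strand: agagaatcGAAACAGAAAccaaagtc
BST2, chr19:17405737-17405768, minus strand: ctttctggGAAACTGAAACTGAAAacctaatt
OAS3, chr12:112938454-112938473, plus strand: ccgggcggGAAAACGAAAcc

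Whether the core goes with the knockdown difference was not tested. It was present in 11 of 17 members that were higher in both knockdown libraries and had a promoter, and in 2 of 5 that were lower in both. SAMD9L rose without a match in its window, and OAS3 holds 2 matches. The median knockdown difference was 0.47 in 19 tested members with the core and 0.13 in 11 without it, while over all genes matched by symbol it was 0.042 in 365 with the core and 0.00094 in 8768 without.

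The RNA sensors came first in the order of the pathway. IFIH1, which encodes the sensor of long double-stranded RNA MDA5, was at 1.05 and 3.60 FPKM in BM1, and in LM2 at 2.36 and 4.61. Both knockdown libraries were above both controls, and the difference of 0.95 ± 0.26 (log2, limma) missed the threshold with an adjusted p of 0.0700. DDX58, the gene of the sensor of 5′-triphosphate RNA RIG-I, was at 12.3 and 21.1 FPKM in BM1, and in LM2 at 12.1 and 22.0. The pairs were nearly the same in both lines, with FPKM ratios of 1.71 and 1.83, and the difference of 0.77 ± 0.25 had an adjusted p of 0.109. DDX60, a helicase reported to assist RIG-I, was at 0.760 and 2.20 FPKM in BM1, and in LM2 at 2.57 and 3.28, so that the BM1 knockdown library remained below the LM2 control.

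The other sensor genes moved little or in opposite ways. DHX58 encodes LGP2, which modulates MDA5, and lay between 2.91 and 3.35 FPKM in all libraries. EIF2AK2, the gene of the kinase PKR that halts translation on double-stranded RNA, lay between 10.2 and 13.4 FPKM. ADAR, whose product edits adenosines in double-stranded RNA and so hides it from MDA5, was at 30.3 and 29.4 FPKM in BM1, and in LM2 at 45.0 and 48.9. The treatment pairs of these 3 genes differed by at most 0.26 on the log2 scale. MAVS, the mitochondrial adaptor downstream of both helicases, was at 11.6 FPKM in the BM1 control and between 18.2 and 19.5 in the 3 other libraries. TLR3, the endosomal sensor, did not pass the filter, with 0.528 and 0.949 FPKM in BM1 and 1.34 and 0.968 in LM2. Of 7 sensor and adaptor genes tested, 0 were called in limma, and 2 had an unadjusted p under 0.05 (IFIH1 and DDX58), as did 24.9% of all genes in either direction.

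Of 4 transcription factors of the response tested, 3 had lower levels in the knockdown library of both lines and 1, STAT2, had opposite signs. Of all genes tested, 36.2% were lower in both lines. IRF9, the DNA-binding subunit of the complex formed with STAT2, was at 12.2 and 5.90 FPKM in BM1, and in LM2 at 7.01 and 5.01. Its difference was -0.68 ± 0.27 (log2, adjusted p 0.163), and a gene listed under a clone name overlaps it on the same strand. IRF1, which drives many of the same targets and is itself induced by interferon gamma, was at 15.1 and 8.82 FPKM in BM1, and in LM2 at 18.8 and 14.5. Both knockdown libraries lay below both controls for IRF9 and IRF1, as for 22.6% of all genes tested. IRF7, the factor that amplifies interferon production, was at 7.78 and 5.79 FPKM in BM1, and in LM2 at 5.15 and 4.43, so the BM1 knockdown exceeded the LM2 control. STAT2 lay between 11.8 and 14.0 FPKM throughout. In limma 0 of 4 factors were called, where 2.76% of all genes were called lower. IRF9 alone had an unadjusted p under 0.05, and 12.5% of all genes were lower at that p.

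The IFIT family held 3 of the 6 calls. The product of IFIT1 binds foreign RNA ends and blocks translation, and those of IFIT2 and IFIT3 act with it in complexes. The 4 listed genes of the family lie near each other on chromosome 10. IFIT1 (ENSG00000185745.9, chr10:91152303-91166243 on GRCh37, plus strand) was at 10.7 and 68.6 FPKM in BM1, and in LM2 at 6.93 and 32.3. It rose by 2.32 ± 0.26 (log2, limma, adjusted p 0.00652), the largest difference among the tested members, with FPKM ratios of 6.41 in BM1 and 4.66 in LM2. IFIT2 (ENSG00000119922.8, chr10:91061712-91069033) was at 12.6 and 52.1 FPKM in BM1, and in LM2 at 7.92 and 21.5. It rose by 1.65 ± 0.27 (adjusted p 0.0168). IFIT3 (ENSG00000119917.13, chr10:91087651-91100728) was at 22.5 and 94.3 FPKM in BM1, and in LM2 at 25.6 and 52.1, and rose by 1.51 ± 0.30 (adjusted p 0.0296).

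In all 3 genes every knockdown library lay above every control, as in 21.8% of all genes tested. The ratio was larger in BM1 for each of the 3. IFIT5 (chr10:91174343-91180758) was the exception in size. It was at 5.99 and 10.3 FPKM in BM1, and in LM2 at 7.06 and 8.56, a difference of 0.47 ± 0.26 (adjusted p 0.306). Its promoter holds 3 matches to the core. IFIT1, IFIT2 and IFIT3 overlap LIPA, a lysosomal lipase gene on the opposite strand, whose level was 48.9 and 26.7 FPKM in BM1 and 17.2 and 16.8 in LM2. Within each line LIPA was lower in the knockdown library, and between the lines it was higher in BM1, as was IFIT1. The part of this overlap in the IFIT values was not tested. Per the labels the library kit keeps the strand, but no source used here says whether counting did.

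The OAS family split. Its synthetases make oligoadenylates on double-stranded RNA that activate RNase L, except OASL, which lacks this activity and enhances RIG-I signalling. OASL (ENSG00000135114.12, chr12:121456914-121477045, minus strand) was at 6.14 and 27.1 FPKM in BM1, and in LM2 at 3.89 and 10.3. It rose by 1.60 ± 0.28 (log2, limma, adjusted p 0.0206). Both knockdown libraries lay above both controls, as for 21.8% of all genes tested. The 3 synthetase genes OAS1, OAS3 and OAS2 lie next to each other elsewhere on the same chromosome. OAS1 (chr12:113344582-113371027) was at 3.23 and 6.92 FPKM in BM1, and in LM2 at 0.573 and 1.61, with a difference of 0.82 ± 0.25 (adjusted p 0.0952). Its neighbour OAS3 (chr12:113376157-113411054) was at 12.3 and 5.12 FPKM in BM1, and in LM2 at 6.45 and 3.57, with a difference of -0.91 ± 0.26 (adjusted p 0.0776). OAS2 was at 9.48 and 7.31 FPKM in BM1, and in LM2 at 4.57 and 4.04. The neighbours OAS1 and OAS3 therefore had opposite signs in both lines, each short of the threshold. For OAS3 both knockdown libraries were below both controls, whereas for OAS1 the LM2 knockdown stayed below the BM1 control.

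**Figure D2:**
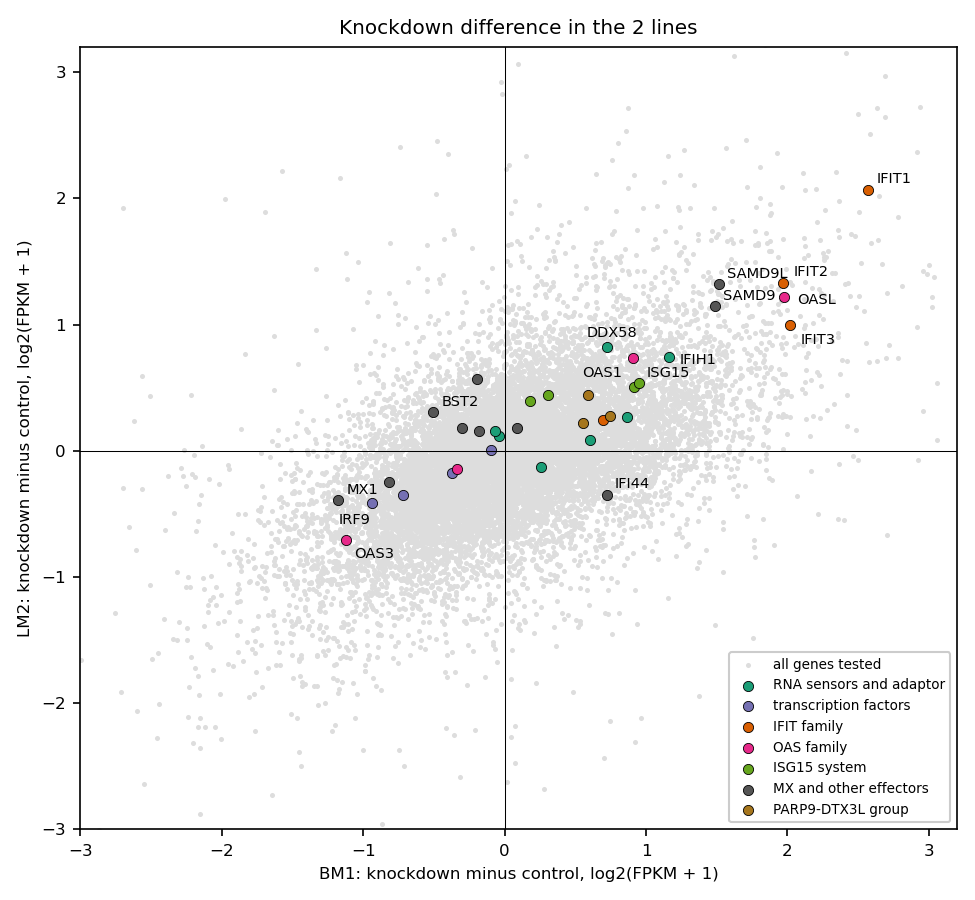
Knockdown minus control on log2(FPKM + 1) in BM1 (x axis) and LM2 (y axis) for 13928 tested genes (grey) and 36 tested members (coloured by role), 1 library per arm; 42 grey genes and 0 members lie outside the axes. The 6 called members sit at the upper right, with IFIT1 at 2.57 and 2.07, and OAS3 (-1.12 and -0.70) and MX1 (-1.18 and -0.39) at the lower left.

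ISG15 is a ubiquitin-like protein that is attached to other proteins by HERC5 and removed by USP18. ISG15 (chr1:936518-949921) had the highest mean level of the members, with 58.8 and 114 FPKM in BM1 and 55.2 and 80.6 in LM2. Its difference was 0.74 ± 0.26 (log2, adjusted p 0.127), with both knockdown libraries above both controls. HERC5, the ligase, showed the same order, at 6.38 and 12.9 FPKM in BM1, and in LM2 at 9.50 and 13.9 (0.71 ± 0.26, adjusted p 0.140). The related ligase gene HERC6 was at 2.27 and 3.04 FPKM in BM1, and in LM2 at 5.70 and 8.10, so its levels were separated by line. USP18, also a brake on the interferon receptor, was low, at 1.22 and 1.51 FPKM in BM1 and 0.599 and 1.10 in LM2. All 4 genes were higher in the knockdown library of both lines, as were 33.0% of all genes tested. In limma 0 of 4 were called, where 2.71% of all genes were called higher. At an unadjusted p under 0.05, 2 were higher (ISG15 and HERC5), as were 12.4% of all genes.

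Among the remaining effectors, SAMD9 and SAMD9L, paralogs that restrict poxviruses and lie side by side on chromosome 7, were called. SAMD9 (ENSG00000205413.7, chr7:92728826-92747336, minus strand) was at 1.57 and 6.19 FPKM in BM1, and in LM2 at 3.24 and 8.41, and rose by 1.32 ± 0.26 (log2, limma, adjusted p 0.0268). SAMD9L (ENSG00000177409.11, chr7:92759368-92777682) was at 0.680 and 3.80 FPKM in BM1, and in LM2 at 1.87 and 6.18, and rose by 1.42 ± 0.25 (adjusted p 0.0208). Both knockdown libraries of both genes were above both controls, as for 21.8% of all genes tested. At these levels the log2(FPKM + 1) scale understates the ratio, which for SAMD9L was 5.59 in BM1 and 3.30 in LM2.

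MX1, the dynamin-like GTPase that blocks influenza virus, was at 9.06 and 3.45 FPKM in BM1, and in LM2 at 3.99 and 2.81. The difference was -0.78 ± 0.28 (log2, adjusted p 0.136), and both knockdown libraries were below both controls. IFI35, which binds the factor NMI, had the same order, at 19.5 and 10.6 FPKM in BM1, and in LM2 at 17.7 and 14.7. BST2 (tetherin, which holds budding virions at the surface) was at 53.2 and 37.1 FPKM in BM1, and in LM2 at 23.4 and 29.2, with opposite signs in the lines. The same was seen for IFI44, IFI6, IFI27 and ISG20. XAF1, a pro-apoptotic gene, was at 0.883 and 0.996 FPKM in BM1, and in LM2 at 1.88 and 2.26. MX2 and IFI44L did not pass the filter. MX2 lay between 0.558 and 1.12 FPKM, and IFI44L, often among the most inducible genes of the response, lay between 0.0217 and 0.262 FPKM, or about 4 to 42 fragments if all came from its longest transcript. Of 10 genes tested in this group 2 (20%) were called higher, SAMD9 and SAMD9L, where 2.71% of all genes tested were.

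PARP9 and DTX3L encode partners of one complex that marks histones and viral proteins, and PARP14 is a neighbouring mono-ADP-ribosyltransferase gene. PARP9 was at 2.04 and 3.57 FPKM in BM1, and in LM2 at 2.59 and 3.89. DTX3L was at 4.21 and 6.64 FPKM in BM1, and in LM2 at 8.25 and 9.76, and PARP14 at 2.43 and 4.74 and at 5.94 and 7.39. All 3 were higher in the knockdown library of each line, as were 33.0% of all genes tested. In limma 0 of 3 were called (adjusted p 0.245 to 0.389) and 0 had an unadjusted p under 0.05. Of all genes 2.71% were called higher, and 24.9% had such an unadjusted p in either direction. PARP9 and DTX3L overlap on opposite strands.

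The sizes were then compared within each line, where a 2-fold rule without a test was used because each arm is 1 library. The rule is a difference of at least 1 on log2(FPKM + 1), which is stricter than the FPKM ratio for low genes. In BM1 7 of 36 tested members (19.4%) were at least 2-fold higher in the knockdown library, where 10.1% of all genes tested were. These were the 6 called members and IFIH1. By the FPKM ratio, for which no share of all genes was taken, DDX60 (2.90), OAS1 (2.14) and HERC5 (2.02) also passed in BM1. In LM2, 5 members (13.9%) were, against 3.83% of all genes. These were the called members without IFIT3, whose log2 difference there was 0.996. By the FPKM ratio IFIT3 (2.03) and OAS1 (2.82) passed in LM2 too. On the log2(FPKM + 1) scale MX1 and OAS3 were at least 2-fold lower in BM1 (5.56% of members, against 6.20% of all genes) and 0 members were in LM2 (against 4.24%), while by the FPKM ratio IRF9 (0.483) joined them in BM1. The share of lower members in BM1 was thus near the background. Under a 1.5-fold rule on the same scale 17 members were higher in BM1 and 9 in LM2, where 21.0% and 10.7% of all genes were.

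Direction was shared by most members. Of the 36, 20 were higher in the knockdown library in both lines (55.6%, against 33.0% of all genes), 7 were lower in both (19.4%, against 36.2%) and 9 had opposite signs. Both knockdown libraries exceeded both controls for 12 members (33.3%, against 21.8% of all genes), and both lay below for 5 (13.9%, against 22.6%). Across the 36 members the BM1 and LM2 differences had a Pearson r of 0.88, and 0.55 across all genes tested. The points of a line share its 2 libraries and genes are not replicates. Among the 27 members with 1 sign in both lines, the difference was larger in BM1 for 23 (85.2%). Among all genes with 1 sign it was larger in BM1 for 62.8%. The difference between the lines' responses could not be tested with 4 libraries.

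The GC content of the transcripts moved with the knockdown differences. Genes were put in 3 groups of equal size by GC content. In BM1 the median difference of all genes was 0.46 in the group with the lowest GC content (up to 44.0%) and -0.24 in that with the highest (over 53.4%), while in LM2 it was 0.072 and -0.15. Of the 13 tested members in the lowest group, the median difference was 0.74 in BM1 and 0.44 in LM2, and 4 of the 6 called genes lie there (IFIT1, IFIT2, SAMD9 and SAMD9L). The 8 members in the highest group, ISG15, OAS3, IRF9, IRF7, IFI35, IFI6, DHX58 and BST2, had medians of -0.44 and -0.012. After the trend with GC content and transcript length was taken out, a step chosen after seeing the data, IFIT1 remained 2.13 higher, OASL 1.77, IFIT2 1.51 and IFIT3 1.45, while SAMD9L went to 1.03 and SAMD9 to 0.87, with adjusted p-values of 0.0640 to 0.109 in limma. The difference of OASL, at 51.4% GC, was thus no smaller after the step, whereas that of SAMD9, at 36.0%, fell from 1.32 to 0.87. The part of GC content in the 6 calls beyond this was not tested.

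**Figure D3:**
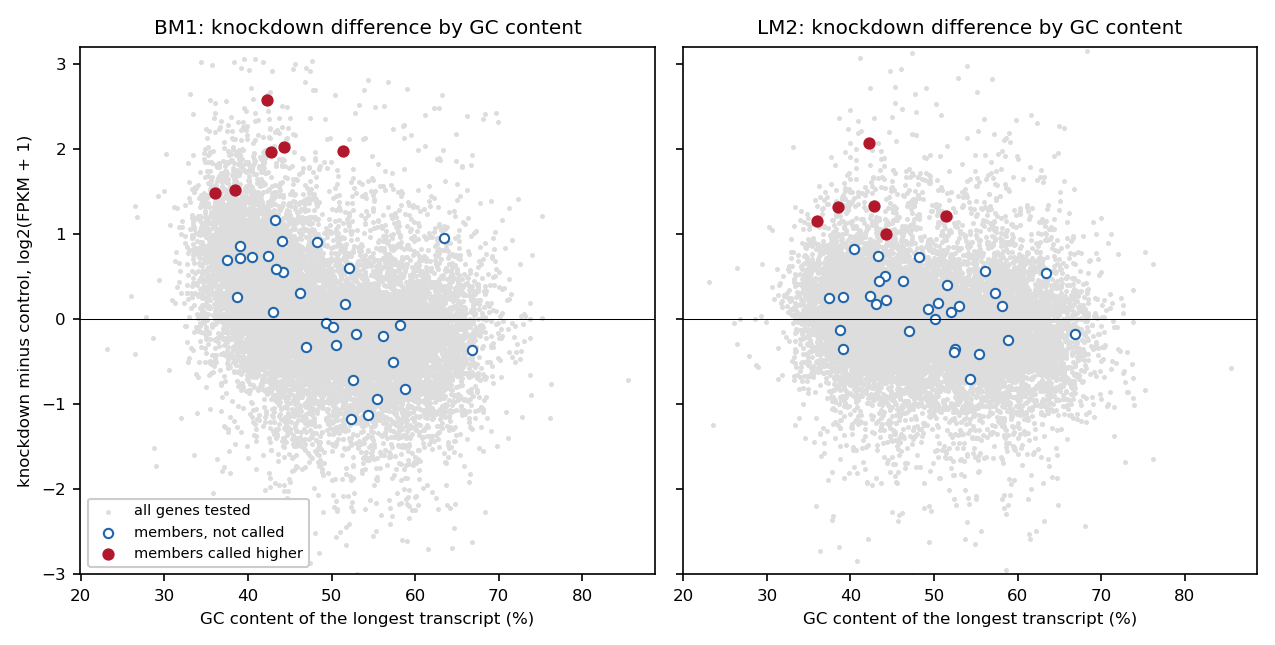
Knockdown minus control on log2(FPKM + 1) against the GC content of the longest GENCODE 29 transcript in BM1 (left) and LM2 (right) for all tested genes with a GC value (grey), 30 members not called (open) and 6 called higher (filled); 24 and 15 grey genes lie outside the axes. In BM1 the grey cloud tilts from a median of 0.46 in the lowest group to -0.24 in the highest, and IFIT1 (2.57) and OASL (1.98) stand above it.

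The lines were compared next, over both treatments. In limma 1 of 36 tested members (2.78%) was called higher in LM2, against 2.31% of all genes tested, and 2 (5.56%) were called lower, against 2.04%. OAS1 was lower in LM2 by 1.51 ± 0.25 on the log2 scale (adjusted p 0.0149), with all BM1 values above all LM2 values. IFI27, a mitochondrial protein gene and a common blood marker of interferon, was at 5.02 and 3.89 FPKM in BM1, and in LM2 at 1.08 and 1.37, a difference of -1.29 ± 0.26 (adjusted p 0.0331). HERC6 was higher in LM2 by 1.10 ± 0.25 (adjusted p 0.0472). These calls were lost in most other settings, as were the 6 above. The median line difference of the members was 0.022, beside -0.0090 over all genes tested.

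Control and knockdown libraries were set side by side for this contrast, and each shares libraries with the knockdown comparison. On log2(FPKM + 1), among controls IFI44 (1.53), HERC6, DDX60 and PARP14 were at least 2-fold higher in LM2 and OAS1 (-1.43), IFI27, BST2 and MX1 at least 2-fold lower, which is 11.1% of members each way against 6.98% and 5.26% of all genes. Among knockdown libraries 1 member, HERC6, was at least 2-fold higher on this scale (2.78%, against 4.41%), and OAS1, OASL, IFIT2, IFIT1 and IFI27 were lower (13.9%, against 4.63%). For the FPKM ratio no share of all genes was taken here either. By that ratio SAMD9L, IFIH1, XAF1 and SAMD9 (2.07 to 2.76) also passed as higher in the LM2 control. IFI6, OAS2 and USP18 (0.454 to 0.491) passed as lower there, and XAF1 (2.27) as higher in the LM2 knockdown library. IFIT3 was at 22.5 and 25.6 FPKM in the BM1 and LM2 controls and at 94.3 and 52.1 in the knockdowns, so its line difference was 0.18 among controls and -0.84 among knockdowns. Both LM2 libraries were above both BM1 libraries for 10 members (27.8%, against 19.4% of all genes) and below for 7 (19.4%, against 21.6%).

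**Figure D4:**
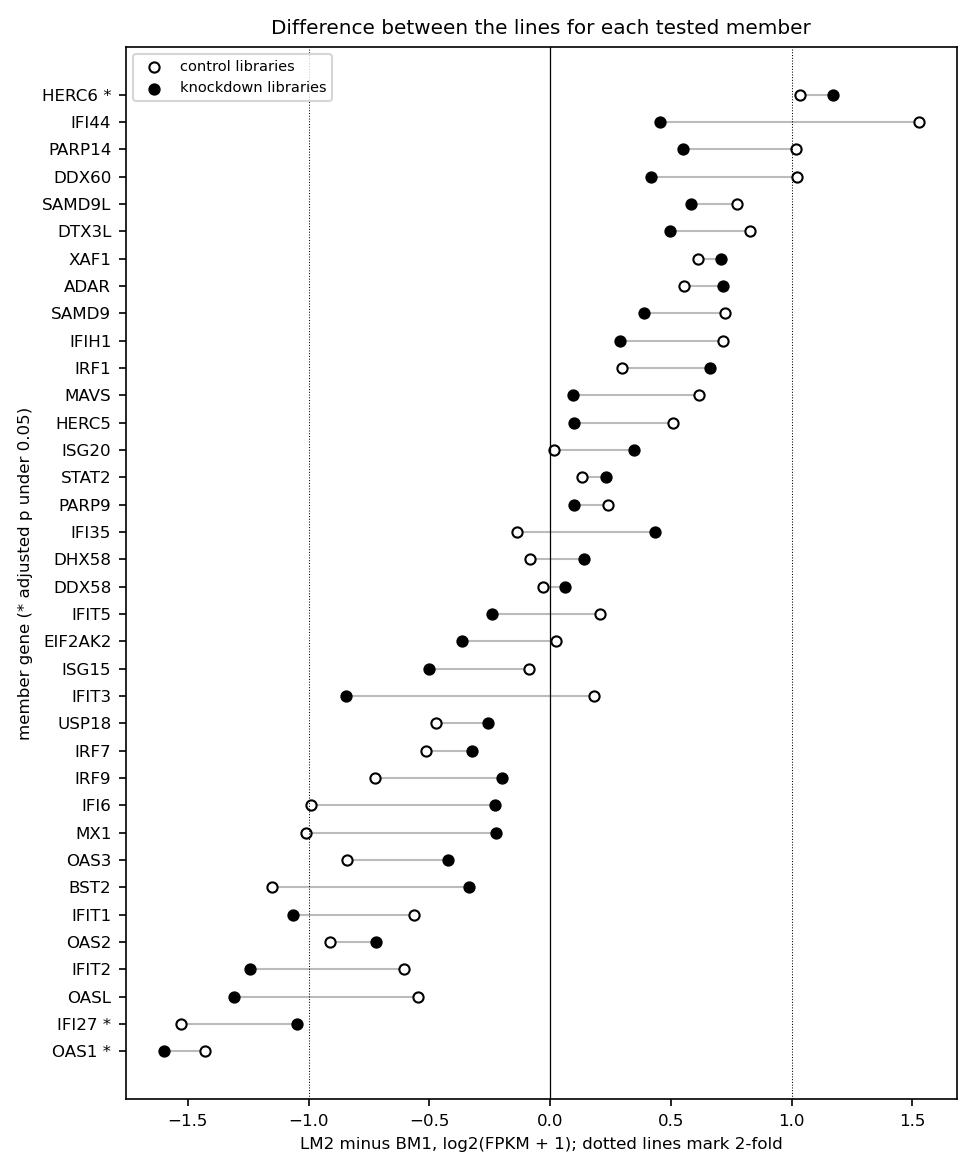
LM2 minus BM1 on log2(FPKM + 1) for the 36 tested members among control libraries (open) and knockdown libraries (filled), 1 library per point and line, sorted by the mean of both; dotted lines mark 2-fold and an asterisk an adjusted p under 0.05. OAS1 (-1.43 and -1.60) and HERC6 (1.03 and 1.17) keep their place in both treatments, while IFI44 moves from 1.53 to 0.46 and IFIT3 from 0.18 to -0.84.

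Other genes of the pathway were taken from a list of receptors, kinases, adaptors, feedback genes and further induced genes. Of 78 symbols 63 had a row and 55 were tested. The symbols without a row include STING1 and CGAS, but these genes were tested under their older symbols TMEM173 and MB21D1. In limma 1 of the 55 (1.82%) was called higher in the knockdown libraries and 0 lower, which is near the shares of all genes given above. At an unadjusted p under 0.05, 11 of the 55 were higher and 3 lower, where 12.4% and 12.5% of all genes were. The higher count was thus above its share and the lower count below. The called gene was TNFSF10, which encodes the death ligand TRAIL. It was at 0.695 and 4.91 FPKM in BM1, and in LM2 at 1.32 and 2.98 and rose by 1.29 ± 0.30 (log2, adjusted p 0.0462). The next by size were IFNGR1, a subunit of the interferon gamma receptor (0.99, adjusted p 0.101), and APOL2 (0.95, adjusted p 0.0631). The most negative were IFITM1, a membrane protein that blocks viral entry (-1.10, adjusted p 0.0868), CIITA, the master activator of MHC class II genes (-0.92, adjusted p 0.0817), and SP110 (-0.65, adjusted p 0.160). IFITM1 overlaps IFITM2 on the same strand, and CIITA and SP110 overlap genes on the opposite strand.

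None of the 9 interferon genes on the list had a row. Of the 55 other pathway genes tested, 1 was called in each direction between the lines (1.82%, limma). Among all genes tested 2.31% were called higher in LM2 and 2.04% lower. The suppressor SOCS1 was called higher in LM2 (0.720 and 0.688 FPKM in BM1, 3.33 and 3.44 in LM2, adjusted p 0.0220) and TRIM34 lower (adjusted p 0.0140). How these calls depend on the settings is not shown here. SOCS1 overlaps RMI2 on the opposite strand.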

How the data were processed

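RNA was measured in 4 cultures, 1 library each. The authors deposited 1 table of FPKM values with a column per library, named in the labels. The submitters' processing notes name STAR 2.5.3a, Cuffdiff 2.2.1 and GRCh37, with no role or order, and no source used here names the annotation. The table has 20369 rows, of which 40 belong to 3 gene IDs with repeated rows (MUC5AC, ECSCR, COPG2) and were left out. No value is 0.

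The members and lists were chosen with earlier results of these data known. Every member is named, and of the other pathway genes those called and the 3 largest changes each way. Depth was inferred from 1623 low single-transcript genes: 36.6% to 44.8% of products of FPKM and GENCODE 29 length lay within 0.02 of whole multiples of a step, so most values did not come out whole, and no count test was run. Values were analysed as log2(FPKM + 1) in genes with a mean of at least 1 FPKM, with limma 3.58.1 (R 4.3.3) and terms for line and treatment. Two-sided p-values were adjusted over all genes tested (Benjamini-Hochberg), with a threshold of 0.05. The line pairs the libraries, since both of a pair come from the same cell line; deviations from treatment means correlated across genes with r = 0.545 between libraries of a line. The design was tried on simulated data, in 10 trials with 200 changed genes. There a mean of 14.5% of its calls were false, more than the threshold states. It recovered a mean of 21.8% of the 2-fold and 96.1% of the 4-fold changes. The reported fit called 762 genes, and whether these shares hold for it was not tested. Neither a call nor a missing call is taken as firm here. P-values measure only the spread between these libraries, which may be technical. Alternatives were other pseudocounts, no filter, 3 scalings, an intensity trend, no pairing, each library left out and, chosen after seeing the data, a correction for GC content and length (a fitted trend taken out of each library). GENCODE 29 lengths and GC content were matched by gene ID, and no coordinates were converted. One gene of the pathway list is not reported here.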

Additional observations from a re-analysis of the deposited data

Results flagged for a closer look

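The 9 tested members below differed in sign between the lines, higher in the knockdown library of one line and lower in that of the other. Each arm is 1 library, and the difference between the lines was not tested. The BM1 minus LM2 gap of the knockdown differences, on the log2(FPKM + 1) scale, was largest for IFI44, at 1.07, where the BM1 pair was at 4.77 and 8.52 FPKM and the LM2 pair at 15.6 and 12.1. EIF2AK2 was the other member with its higher value in the BM1 knockdown, with a gap of 0.39. The gaps of the 7 others ran the other way. BST2 had a gap of -0.82 and IFI6, at 10.1 and 8.71 FPKM in BM1 and 4.59 and 7.28 in LM2, one of -0.76. IFI27 had -0.48, ISG20 -0.33, DHX58 -0.22, ADAR -0.16 and STAT2 -0.10. Among all genes tested 30.9% had opposite signs in the lines, against 25.0% of the members.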

How the results depend on the processing

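Of the 6 members called higher with knockdown, 0 were called with a pseudocount of 0.1, without the filter, with quantile normalization, with scaling to genes outside the mitochondrial genome, with no replicate block (the fit that does not pair the libraries by line), after the GC and length correction, or without any of the 4 libraries (0 to 0). The same settings gave 0 calls for TNFSF10, as did a pseudocount of 0.5. HERC6 was called higher in LM2 only in the reported fit and with size factors, so the count was 0 elsewhere. Of OAS1 and IFI27, lower in LM2, 1 was called with a pseudocount of 0.1 (OAS1), both with a pseudocount of 0.5, size factors and an intensity trend, and 0 elsewhere, leave-one-out fits included. The fits without 1 library (BM1 control, BM1 knockdown, LM2 control or LM2 knockdown) also lose the pairing, which by itself ended the calls, so whether 1 library carries a call was not shown. Over all genes, the knockdown calls were 762 in the reported fit, 613 with a pseudocount of 0.5, 707 with size factors, 888 with the trend, 27 with a pseudocount of 0.1, 16 with non-mitochondrial scaling and 0 in the other settings, where 860 to 3735 genes had an unadjusted p under 0.05. Why the counts move was not tested. The 1.5-fold rule raised the members at least as much higher in the knockdown library from 7 to 17 in BM1 and from 5 to 9 in LM2. The median difference of the tested members went from 0.32 to 0.19 without the filter, which adds 3 members of low level, and was 0.15 to 0.51 in the other settings.

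Some differences changed sign, none of them a call. With the GC and length correction, the knockdown difference became 0.13 for BST2, -0.35 for EIF2AK2, 0.11 for IFI27, -0.080 for IFI44, 0.12 for ISG20, 0.11 for STAT2 and -0.0026 for XAF1, and the line difference of DDX58 became -0.10. Non-mitochondrial scaling gave 0.0024 for IFI27, 0.048 for ISG20 and 0.027 for STAT2, and size factors a line difference of 6.45e-05 for IFIT5. Leaving out each library in turn, the knockdown differences that changed sign ranged as follows: ADAR -0.32 to 0.39, BST2 -0.68 to 0.48, DHX58 -0.027 to 0.11, DTX3L -0.029 to 0.80, EIF2AK2 -0.12 to 0.25, HERC6 -0.21 to 0.96, IFI27 -0.82 to 0.71, IFI44 -0.58 to 0.95, IFI6 -0.31 to 0.68, ISG20 -0.19 to 0.16, OAS2 -0.70 to 0.22, PARP14 -1.63e-04 to 1.02, STAT2 -0.16 to 0.067, XAF1 -0.22 to 0.48. The line differences that did so ranged as follows: DDX58 -0.39 to 0.42, DHX58 -0.049 to 0.11, HERC5 -0.15 to 0.76, IFI35 -0.26 to 0.56, IFIH1 -0.081 to 1.08, IFIT1 -2.10 to 0.47, IFIT2 -1.91 to 0.062, IFIT3 -1.34 to 0.68, IFIT5 -0.36 to 0.33, IRF9 -0.93 to 0.0066, ISG15 -0.77 to 0.18, OASL -1.92 to 0.061, PARP9 -0.13 to 0.46, SAMD9 -0.19 to 1.30, SAMD9L -0.079 to 1.44. Depth limits the lowest members, such as IFI44L.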
